A study of Mus musculus with 9 samples.

Results

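The 10 genes described here encode acute phase proteins and pantetheinases: the serum amyloid A genes Saa1, Saa2 and Saa3, lipocalin 2 (Lcn2), haptoglobin (Hp), the serpins Serpina3n and Serpina3g, the vanins Vnn1 and Vnn3, and pentraxin 3 (Ptx3). They were taken by gene symbol from the 31232 genes of the deposited table, and 9 of the 10 had enough counts to be among the 15774 genes tested. Vnn1 did not. The members were chosen by their values in these libraries, since several are nearly absent under PSS flow, so their differences from PSS are a description of that choice, given without p-values. Vnn1 was low in every group, and Lcn2 and Serpina3g were clearly detected under PSS.

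RNA was sequenced from bEnd.3 cells, an endothelial line from mouse brain that was made permanent with the middle T antigen of polyoma virus. The cells grew on glass coverslips and met flow in a parallel-plate chamber. The PSS group had laminar flow of 10 dyne/cm2, the HSS group laminar flow at 20 dyne/cm2, while Vortex cells met vortex flow at 0.5 to 2 dyne/cm2, each with 3 libraries. The submitters chose these flows to stand for normal vessels, for early aneurysm and for late aneurysm, in that order. PSS and HSS differ in the size of the shear and Vortex differs in both size and pattern. All groups are 1 cell line without the blood, smooth muscle or glia that surround it in a vessel. The labels do not say that the 3 libraries of a group came from separate cultures, and they describe the RNA as mixed, so the spread between libraries may be technical.

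Acute phase proteins are secreted in large amounts when tissue is injured or infected. The liver makes most of them under IL-6 and IL-1, through the transcription factors STAT3, C/EBP and NF-kappaB, while Saa3, Lcn2 and Ptx3 are also made at the site of inflammation, endothelium included. Serum amyloid A proteins travel on high-density lipoprotein, lipocalin 2 withholds iron from bacteria by binding their siderophores, haptoglobin captures free haemoglobin, and pentraxin 3 binds complement C1q. Serpina3n and Serpina3g inhibit proteases, and vanins split pantetheine into pantothenate, the precursor of coenzyme A, and the thiol cysteamine.

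Total counts per library ranged from 17407217 to 22965802. Vortex replicate 2 stood apart from the other libraries. Its summed level of 10 endothelial markers was 6493 CPM (counts relative to library totals that were corrected for composition), against 753 in Vortex replicate 1, 1155 in Vortex replicate 3, 2255 to 2823 in PSS and 368 to 375 in HSS. Its difference from PSS depended on the GC content of a gene, with a median log2 difference of -1.03 in the eighth of genes lowest in GC and 0.78 in the highest. The GC trend was computed for this library alone, so whether others had one is not known. The tested members, at 48.6% to 55.6% GC, lay in the 4th to 7th eighths. Results that use Vortex are given with and without this library.

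The coding sequences of the 3 Saa genes are shown first because they decide how well reads can be assigned. Over bases 220 to 309 of the coding sequence (transcripts of GENCODE M21, build GRCm38; the authors aligned to GRCm39), capitals mark bases that differ from Saa1 at the aligned position.
Saa1: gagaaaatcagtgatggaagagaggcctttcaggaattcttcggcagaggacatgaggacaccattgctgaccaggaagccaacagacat
Saa2: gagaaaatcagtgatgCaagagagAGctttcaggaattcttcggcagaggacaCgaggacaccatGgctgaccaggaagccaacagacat
Saa3: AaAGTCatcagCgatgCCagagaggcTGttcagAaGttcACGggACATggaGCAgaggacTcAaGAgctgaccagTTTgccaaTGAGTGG
Saa2 differed from Saa1 at 5 of these 90 bases and Saa3 at 36. Over the whole coding sequence Saa1 and Saa2 were identical at 351 of 369 bases, or 95.1%, and Saa1 and Saa3 at 76.2% of the aligned bases. Of the 50-base windows of Saa1 transcripts, 31.1% also occurred in Saa2, and of the 100-base windows 8.96%. All annotated transcripts of Saa1 gave 2519 windows of 50 bases, so most lay outside its coding sequence of 369 bases. The share for the coding sequence alone was not computed. Reads of Saa1 and Saa2 may therefore have been exchanged or dropped, and their values are uncertain. Of the 50-base windows of Saa3, 3.57% occurred in another gene, 1.88% in the noncoding RNA Malat1 and 0.346% in Saa1, and of its 100-base windows 0. For Serpina3g, 15.5% of 50-base windows occurred in another gene. Of all its windows, 8.89% occurred in Serpina3h and 2.33% in Serpina3n. For Serpina3n, the share found in another gene was 6.9%. Lcn2, Hp, Vnn1, Vnn3 and Ptx3 shared no such window with the other Saa, vanin or Serpina3 genes. No source used here gives the read length.

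Promoters are shown for the 2 most abundant members and for the 2 serpins, whose Vortex values differed from each other. They are the 250 bases before the annotated start, from RefSeq on GRCm38.p6, and capitals mark a match to one of 3 motifs searched on both strands. The motifs were TTGCNNAA for C/EBP, GGGNN followed by TTTCC for NF-kappaB and TTCCNGGAA for STAT. Lcn2 lies at chr2:32387740-32387989 and Saa3 at chr7:46715677-46715926, both on the minus strand, and the capitals in both mark C/EBP matches.
Lcn2: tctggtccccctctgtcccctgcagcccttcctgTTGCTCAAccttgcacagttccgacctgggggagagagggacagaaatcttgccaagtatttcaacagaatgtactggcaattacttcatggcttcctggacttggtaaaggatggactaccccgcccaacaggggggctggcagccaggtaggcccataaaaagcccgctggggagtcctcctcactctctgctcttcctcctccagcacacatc
Saa3: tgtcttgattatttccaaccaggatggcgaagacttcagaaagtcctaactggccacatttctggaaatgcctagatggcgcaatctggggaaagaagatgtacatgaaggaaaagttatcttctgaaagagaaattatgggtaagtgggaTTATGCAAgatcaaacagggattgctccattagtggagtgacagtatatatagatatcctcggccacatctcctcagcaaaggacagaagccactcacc
Serpina3n lies at chr12:104406458-104406707 and Serpina3g at chr12:104235897-104236146, both on the plus strand, and the capitals in both mark NF-kappaB matches.
Serpina3n: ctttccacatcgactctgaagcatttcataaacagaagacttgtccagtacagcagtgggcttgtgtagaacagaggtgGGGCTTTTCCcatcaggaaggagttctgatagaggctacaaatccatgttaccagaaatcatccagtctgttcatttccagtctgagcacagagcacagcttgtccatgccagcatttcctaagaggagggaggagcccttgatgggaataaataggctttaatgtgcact
Serpina3g: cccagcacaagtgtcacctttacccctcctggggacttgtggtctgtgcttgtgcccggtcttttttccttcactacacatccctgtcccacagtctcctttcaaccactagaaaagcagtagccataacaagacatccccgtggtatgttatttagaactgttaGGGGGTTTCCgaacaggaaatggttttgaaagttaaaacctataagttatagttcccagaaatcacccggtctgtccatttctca
Of the 10 genes, 8 had a promoter in the table; Hp and Vnn1 did not. The C/EBP letters occurred in 6 of the 8 (Lcn2, Saa1, Saa2, Saa3, Vnn3 and Ptx3) and in 9.56% of all 32851 promoters of this length. The NF-kappaB letters occurred in the 2 serpins and in 1.41% of all promoters. The STAT letters occurred in none of the 8 and in 0.913% of all. No matches overlapped within these promoters. Saa1 and Saa2 are near copies, and so are the serpins in part, so these matches are not independent, and a match is a description of letters, not of binding.

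Lcn2 and Saa3 were 2 of the most abundant transcripts of HSS cells and scarce in PSS cells. Levels between genes are compared in FPKM, the authors' counts per gene length and library total. Lcn2 stood at 7.83, 7.55 and 9.56 FPKM in PSS replicates 1, 2 and 3, at 612, 652 and 639 FPKM in the HSS replicates, and at 970, 4.70 and 783 FPKM in the Vortex replicates. All HSS libraries and Vortex replicates 1 and 3 were far above every PSS library, and Vortex replicate 2 was below every PSS library. The HSS libraries varied little, with a mean of 634 FPKM ± 20.5 (SD, n = 3) against 8.31 ± 1.09 in PSS (SD, n = 3), while the 3 Vortex libraries gave 586 ± 512 and, without replicate 2, 877 ± 132 (SD, n = 2). Among all genes Lcn2 ranked 20 to 21 by FPKM in HSS, 20 in Vortex replicate 1 and 23 in Vortex replicate 3, against 5169 to 6275 in PSS and 7387 in Vortex replicate 2. In bulk RNA, fewer cells that express a gene and less of its RNA per cell cannot be told apart.

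Saa3, the serum amyloid A of tissues outside the liver, stood next to Lcn2 in level under HSS. Its level was 1.56, 1.57 and 1.81 FPKM in PSS, 535, 576 and 568 FPKM in HSS, and 739, 0.969 and 395 FPKM in Vortex. The groups PSS and HSS did not overlap, and Vortex covered the range from below PSS to above HSS. The mean difference between HSS and PSS was a log2 fold change of 8.44 (SE 1.75, or 0.30 when Vortex replicate 2 was left out of the fit). For Lcn2 it was 6.28 (SE 1.40, or 0.18 without that library). The ratio of Lcn2 to Saa3 in FPKM was 4.8 to 5.28 in PSS and 1.12 to 1.14 in HSS, and it was 1.31, 4.85 and 1.98 in Vortex replicates 1, 2 and 3. Vortex replicate 2 thus had the PSS ratio as well as PSS-like levels.

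Saa1 and Saa2, the circulating forms made mainly by the liver, were minor transcripts. Saa1 had 2, 0 and 1 counts in PSS, 73, 63 and 66 in HSS, and 69, 1 and 32 in Vortex. Saa2 had 3, 3 and 2 counts in PSS, 74, 68 and 95 in HSS, and 76, 1 and 29 in Vortex. The paralogs followed each other in every library, and Saa3 held 99.4% to 99.5% of the counts of the 3 Saa genes in HSS and 93.8% to 97% in PSS. Since Saa1 and Saa2 together were so few beside Saa3, and reads can be exchanged between near copies, their parallel course is not a separate measurement. As a ratio of scaled counts, Saa1 was 71.3 times higher in HSS than in PSS (95% interval 24 to 349) and Saa2 31.4 times (15.7 to 73.5). With 3 counts in PSS, the fitted log2 fold change of Saa1 moved from 5.98 to 6.84 without PSS replicate 1 and to 5.44 without PSS replicate 2. These exact intervals cover counting error only.

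Hp, whose product clears haemoglobin, was low but followed the same course. It had 7, 6 and 5 counts in PSS, 151, 127 and 153 in HSS, and 205, 0 and 156 in Vortex. The HSS mean was 4.73 FPKM ± 0.338 (SD, n = 3) against 0.192 ± 0.042 in PSS (SD, n = 3), a log2 fold change of 4.63 (SE 1.33, or 0.31 without Vortex replicate 2 in the fit). With 0 counts, Hp in Vortex replicate 2 was at least 51.9-fold lower than in HSS, taking 3 counts as the upper limit.

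The serpins Serpina3n and Serpina3g, from the same gene cluster on chromosome 12, did not move alike. Serpina3n, a secreted inhibitor of serine proteases, had 0 counts in all PSS libraries, 107, 97 and 92 in HSS, and 197, 2 and 56 in Vortex. It was at least 104-fold higher in HSS than in PSS, with 3 counts over the PSS group as the limit, and at least 91.5-fold higher in Vortex, or 144-fold without replicate 2 and 28.8-fold without replicate 1. Serpina3g, an intracellular serpin known to inhibit cathepsins, stood at 1.86, 1.67 and 2.45 FPKM in PSS, 4.98, 5.51 and 5.57 FPKM in HSS, and 3.40, 11.6 and 10.7 FPKM in Vortex. Every HSS and Vortex library was above every PSS library, and the highest level of all 9 was in Vortex replicate 2, where the other induced members were lowest among the HSS and Vortex libraries. Serpina3n made up 29.7% to 32.9% of the counts of the pair in HSS, 61.2% in Vortex replicate 1 (95% Wilson interval 55.8% to 66.3%), 0.357% in replicate 2 (0.0978% to 1.29%) and 10.6% in replicate 3 (8.29% to 13.6%). The order of the Vortex libraries was thus reversed between the serpins. Of the Serpina3 genes that share sequence with Serpina3g, Serpina3f and Serpina3i had its order of Vortex libraries, with 0.82, 3.86 and 2.72 CPM for Serpina3f and 1.39, 5.86 and 4.2 CPM for Serpina3i in Vortex replicates 1, 2 and 3. Serpina3h, which shares the most, was also highest in Vortex replicate 2, with 0.441, 1.67 and 0.395 CPM. Its 7, 35 and 8 counts are too few to set the order of replicates 1 and 3.

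Of the pantetheinases, Vnn3 was higher in HSS than in PSS and Vnn1 was not. Vnn3 had 0 counts in all PSS libraries, 127, 96 and 137 in HSS, and 95, 0 and 94 in Vortex, so that it was at least 127-fold higher in HSS than in PSS. It was at least 67.8-fold higher in Vortex, or 107-fold without replicate 2 and 46.7-fold without replicate 1. Vnn1 had 13, 6 and 10 counts in PSS, 9, 3 and 5 in HSS, and 2, 6 and 7 in Vortex, and its groups overlapped. Its ratio of scaled counts was 1.61 times lower in HSS than in PSS, with an interval of 0.856 to 3.13 that includes no difference. At this depth no difference of Vnn1 was detectable. The coding sequences of Vnn1 and Vnn3 were identical at 67.4% of aligned bases, and they shared no 50-base window.

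Ptx3, the long pentraxin, was rare and differed from the others in Vortex. It had 3, 5 and 4 counts in PSS, 32, 27 and 41 in HSS, and 103, 17 and 77 in Vortex. All Vortex libraries were above PSS, and replicates 1 and 3 were above every HSS library while replicate 2 was below. The ratio of scaled counts was 8.82 between HSS and PSS (interval 4.83 to 17.6), and Vortex replicate 2 alone was 4.15 times above PSS (1.87 to 9.52).

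**Figure D1:**
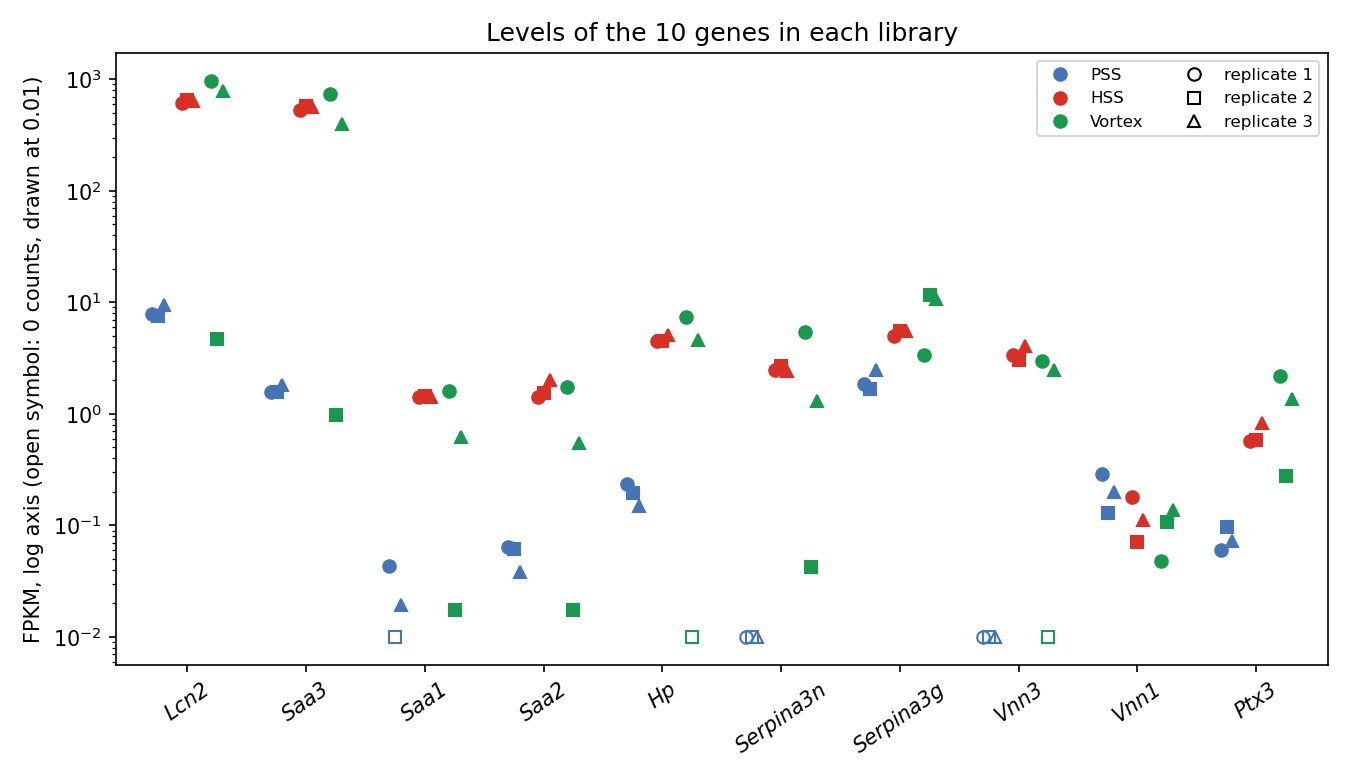
Level of each of the 10 genes in the 9 libraries, in FPKM on a log axis, with colour for the flow group, symbol for the replicate and open symbols at 0.01 for libraries with 0 counts. Lcn2 and Saa3 reach 535 to 652 FPKM in HSS, and Vortex replicate 2 falls to 4.70 and 0.969 FPKM.

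In HSS the order of mean FPKM was Lcn2, Saa3, Serpina3g, Hp, Vnn3, Serpina3n, Saa2, Saa1, Ptx3 and Vnn1. Of neighbours in that order, only Serpina3g and Hp, and Saa2 and Saa1, had overlapping libraries. In PSS the order was Lcn2, Serpina3g, Saa3, Vnn1, Hp, Ptx3, Saa2 and Saa1, with Serpina3n and Vnn3 at 0. There the libraries separated Lcn2 from Serpina3g, Saa3 from Vnn1, and Hp from Ptx3, and all other neighbours overlapped. In Vortex all neighbours overlapped. The 10 genes together took 28.5 to 36 CPM of the unscaled library totals in PSS, 3038 to 3251 in HSS, and 4521, 40.4 and 3128 in Vortex replicates 1, 2 and 3. Lcn2 and Saa3 made up 98.6% to 98.9% of that in HSS and in Vortex replicates 1 and 3, but 36.8% in Vortex replicate 2, where Serpina3g had 559 of the 927 counts.

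The difference between Vortex and PSS depended on which Vortex libraries were included. Lcn2 had a log2 fold change of 6.30 (SE 1.40) with all libraries, 6.88 (SE 0.19) without Vortex replicate 2 and 5.66 without Vortex replicate 1. For Saa3 it was 8.01 (SE 1.72), 8.59 (SE 0.30) and 7.0 in the same order, and for Hp 4.52 (SE 1.33), 5.10 (SE 0.32) and 3.66. Saa1 and Saa2 were 36.6 and 14.3 times higher by the ratio of scaled counts, 57.3 and 22.3 times without Vortex replicate 2, and 16.4 and 5.59 times without Vortex replicate 1. Leaving out PSS replicate 1 moved the fitted log2 fold change of Saa1 from 5.16 to 6.02. Serpina3g went the other way, with 2.26 (SE 0.42) with all libraries and 1.95 (SE 0.38) without Vortex replicate 2, against 1.45 (SE 0.41) in HSS. Ptx3 had 4.20 (SE 0.74), 4.67 (SE 0.41) without Vortex replicate 2 and 3.49 without Vortex replicate 1, against 3.10 (SE 0.73) in HSS. The comparisons of HSS and of Vortex with PSS share the PSS libraries.

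The counts of members above PSS restate how the members were chosen, and nothing is read from them. Serpina3n and Vnn3 had 0 counts in PSS, and Saa1, Saa2, Hp and Ptx3 at most 7 in any library of that group. These genes also passed the filter on low counts through the other groups alone. For HSS against PSS, 7 of the 9 tested members were called higher (4.18% of all tested genes), and 9 of 9 without Vortex replicate 2 (15.4%). A call means a Benjamini-Hochberg adjusted p under 0.05 in edgeR's quasi-likelihood test over all tested genes. Hp and Serpina3g were the 2 not called. The count was 0 when any 1 of the PSS or HSS libraries was left out, 3 without Vortex replicate 3 and 9 without Vortex replicate 1. In 9 of the 10 genes every HSS library was above every PSS library, as in 29.9% of tested genes. For Vortex against PSS, 7 of 9 were called higher (8.33% of all tested genes), and 9 of 9 without Vortex replicate 2 (19.7%). Saa2 and Hp were not called, and the count was 0, 1 or 2 without PSS replicate 1, 2 or 3 and 4 without Vortex replicate 3 or any 1 HSS library. Every Vortex library was above every PSS library for Serpina3n, Serpina3g and Ptx3 alone (15.6% of tested genes), and for 9 genes without replicate 2 (27.2%).

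Vortex against HSS compares no PSS library directly, and it was tested. The values of the members in both groups were known when they were chosen, and the PSS libraries enter the scaling, the filter and the spread of the fit. None of the 9 tested members was called in either direction by edgeR's quasi-likelihood test, none had an unadjusted p under 0.05, and 0 were called by the DESeq2 Wald test, against 7.04% of all tested genes called by edgeR. All 10 genes overlapped between the groups, while every Vortex library was above every HSS library in 19.5% of tested genes and below in 16.9%. The log2 fold changes with all libraries were 0.02 for Lcn2 (SE 1.11, adjusted p = 0.995), -0.43 for Saa3 (SE 1.26, adjusted p = 0.862) and 1.09 for Ptx3 (SE 0.62, adjusted p = 0.292). The wide errors go with Vortex replicate 2, and these values do not show that the groups were alike.

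Without Vortex replicate 2, Lcn2 was higher in Vortex than in HSS, with a log2 fold change of 0.60 (SE 0.16, adjusted p = 0.0245), and Ptx3 was higher by 1.57 (SE 0.33, adjusted p = 0.00895, both by edgeR's quasi-likelihood test). Both remaining Vortex libraries were above all 3 HSS libraries for these genes, as in 30.3% of tested genes. That is 2 of 9 members called higher, beside 13.9% of all tested genes. The other 7 did not pass, with log2 fold changes of -0.42 for Saa2, -0.25 for Saa1, -0.22 for Vnn3, 0.16 for Saa3, 0.47 for Hp, 0.50 for Serpina3g and 0.56 for Serpina3n. Without Vortex replicate 1 instead, Serpina3g was the only member called, at 1.16 (adjusted p = 0.0177), and 2440 genes were called in all. The sign of Lcn2 depended on the library left out, at -0.60 without Vortex replicate 1 and -0.22 without Vortex replicate 3. Vortex replicate 2 was set apart after its values were seen. The calls without it therefore describe the 2 Vortex libraries that remain.

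**Figure D2:**
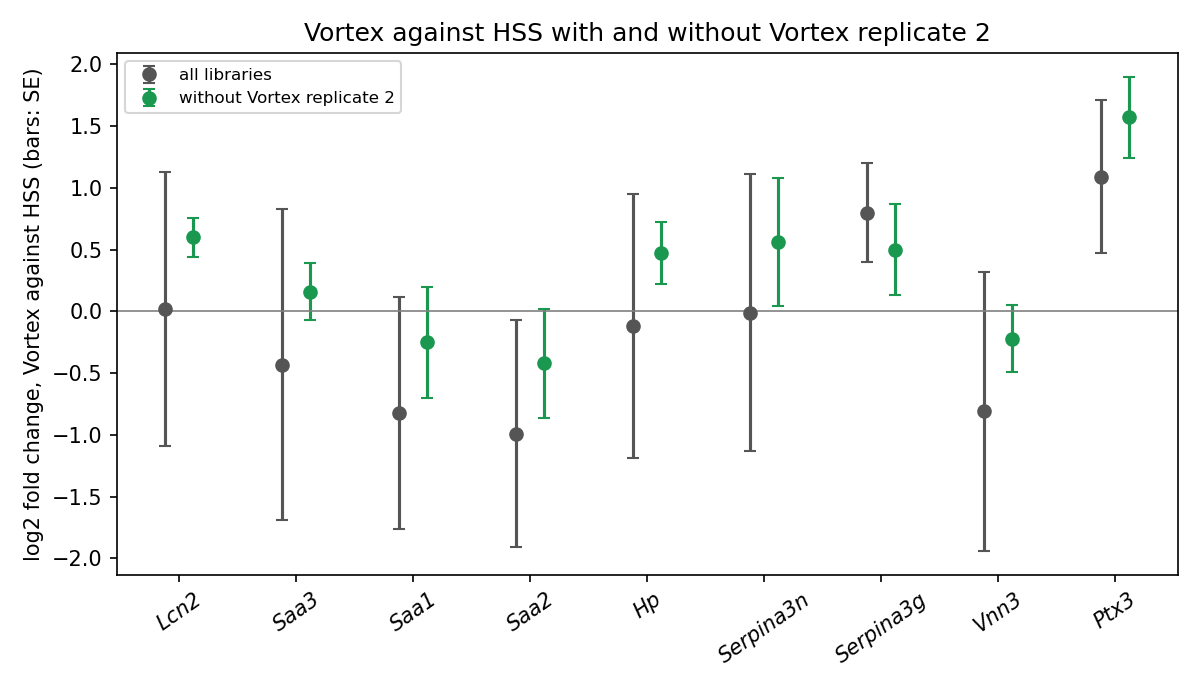
Log2 fold change of the 9 tested members between Vortex and HSS from edgeR's fit, with bars for the standard error, with all libraries and without Vortex replicate 2. Values with all libraries lie between -0.99 and 1.09 with long bars, and the bars shorten without that library.

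The 3 Vortex libraries held very different levels of most members. Relative to the HSS mean in CPM, Lcn2 stood at 172% in Vortex replicate 1, 0.829% in replicate 2 and 131% in replicate 3. For Saa3 these were 149%, 0.194% and 74.5%, and for Serpina3n 243%, 1.87% and 54.1%. Vnn3 stood at 96.8%, 0% and 74.9%. Replicate 1 was thus at or above the HSS level for most members, replicate 3 was mixed, and replicate 2 was near PSS. Saa3 was 515 times lower in Vortex replicate 2 than in HSS (interval 399 to 679) and Lcn2 120 times (107 to 136), and against PSS they were 1.49 times (1.12 to 2.02) and 1.55 times lower (1.36 to 1.77).

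In 6 of the 9 tested members, Vortex replicates 1 and 3 lay above every PSS library while replicate 2 lay at or below the highest of them. The exceptions were Serpina3n, Serpina3g and Ptx3. This split was found in 11.7% of all tested genes and in 19.6% of the 659 genes called higher in HSS than in PSS. The order of replicate 1 over replicate 3 over replicate 2 held in 8 of 9 members, all but Serpina3g, and in 31.2% of all tested genes. The libraries are shared by all genes, so these counts are descriptions of these 3 libraries.

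**Figure D3:**
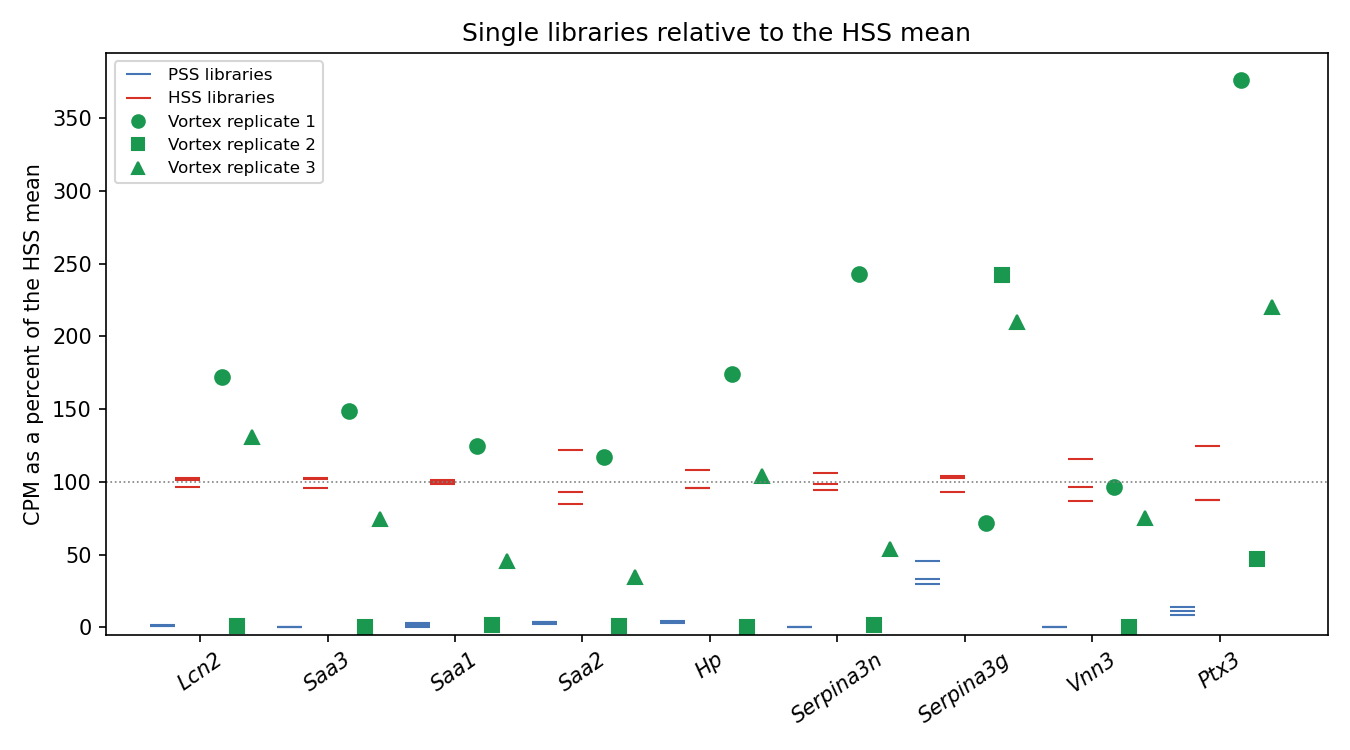
CPM of the genes in each library as a percent of the HSS mean, with dashes for the PSS and HSS libraries and symbols for Vortex replicates 1, 2 and 3. Vortex replicate 2 lies at 0% to 1.87% for 7 genes and at 242% for Serpina3g, while replicate 1 reaches 376% for Ptx3.

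Markers of other cell types were read beside these levels, since liver, leukocytes, astrocytes and mural cells can make these proteins. The defining hepatocyte markers were near 0, with 0 to 2 counts of Alb and 0 to 1 of Ttr and Cyp2e1 per library, and almost all of the hepatocyte sum was Trf. Ptprc, the pan-leukocyte marker, had 0 to 1 counts, Adgre1 0 to 7, and the neutrophil genes Mpo 0 to 2 and Elane 0 to 6. The macrophage and leukocyte sum was 11.1 to 12.7 CPM in PSS, 36 to 39.5 in HSS and 76.2, 30.4 and 81 in Vortex replicates 1, 2 and 3, so that in Vortex replicate 2 it was nearer to HSS than to PSS. Cd68, Csf1r and Cd14 carried most of it, and Csf1r stood at 1.36 to 2.79 CPM in PSS, 15.8 to 18.9 in HSS and 17.1, 13.1 and 8.64 in Vortex. The neutrophil sum was 2.92 to 5.87 CPM in PSS, 14.3 to 16.1 in HSS, and 24.2, 6.19 and 22.9 in Vortex. S100a8 and Camp carried most of it in HSS and in Vortex replicates 1 and 3. In Vortex replicate 2 these stood at 1.91 and 0.0953 CPM, while Ltf and Ly6g were at their highest, 2.72 and 1.29 CPM. Ltf was also lower in HSS, at 0.28 to 0.579 CPM, than in PSS, at 0.827 to 1.06 CPM. The fibroblast and pericyte sum was 677 to 910 CPM in PSS, 1091 to 1151 in HSS and 1064, 115 and 926 in Vortex, so it was lower in Vortex replicate 2 than in any other library. Its genes did not move alike. Col3a1 stood at 388 to 546 CPM in PSS, 739 to 783 in HSS and 407, 54 and 335 in Vortex. Col1a1 was also lower in Vortex replicates 1 and 3 than in HSS, while Pdgfra and Dcn were higher there. Pdgfra stood at 69.4 to 76.4 CPM in PSS, 68 to 73.4 in HSS and 467, 21.4 and 332 in Vortex. Lum and Rgs5 were lower in HSS than in PSS. The astrocyte sum was 234 to 246, 289 to 293 and 346, 76.9 and 256 CPM, with Aqp4 at 0 to 1 counts. Gja1 carried most of it, at 198 to 211 CPM in PSS, 283 to 285 in HSS and 336, 59.8 and 239 in Vortex. Slc1a2 went the other way, at 20.5 to 26.1 CPM in PSS and 0.897 to 1.32 in HSS. So did Slc1a3, at 5.56 to 6.25 CPM in PSS and 1.46 to 1.58 in HSS.

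All 10 endothelial markers were among the tested genes, but Cldn5 had 2, 0 and 0 counts in HSS and Erg 15, 8 and 5. Their sum was lower in HSS than in PSS, opposite to the members. Vortex replicates 1 and 3, however, were above HSS both in this sum and in that of the members. The endothelial sum was lowest in HSS and highest in Vortex replicate 2, where Pecam1 had 30567 counts against 23 to 1116 in the other libraries. The summed level of the 10 genes was 26.7 to 35.4 CPM in PSS, 2976 to 3173 in HSS and 4974, 44.2 and 3233 in Vortex. The part of these marker levels, and of the GC trend of Vortex replicate 2, in the members' values was not tested.

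**Figure D4:**
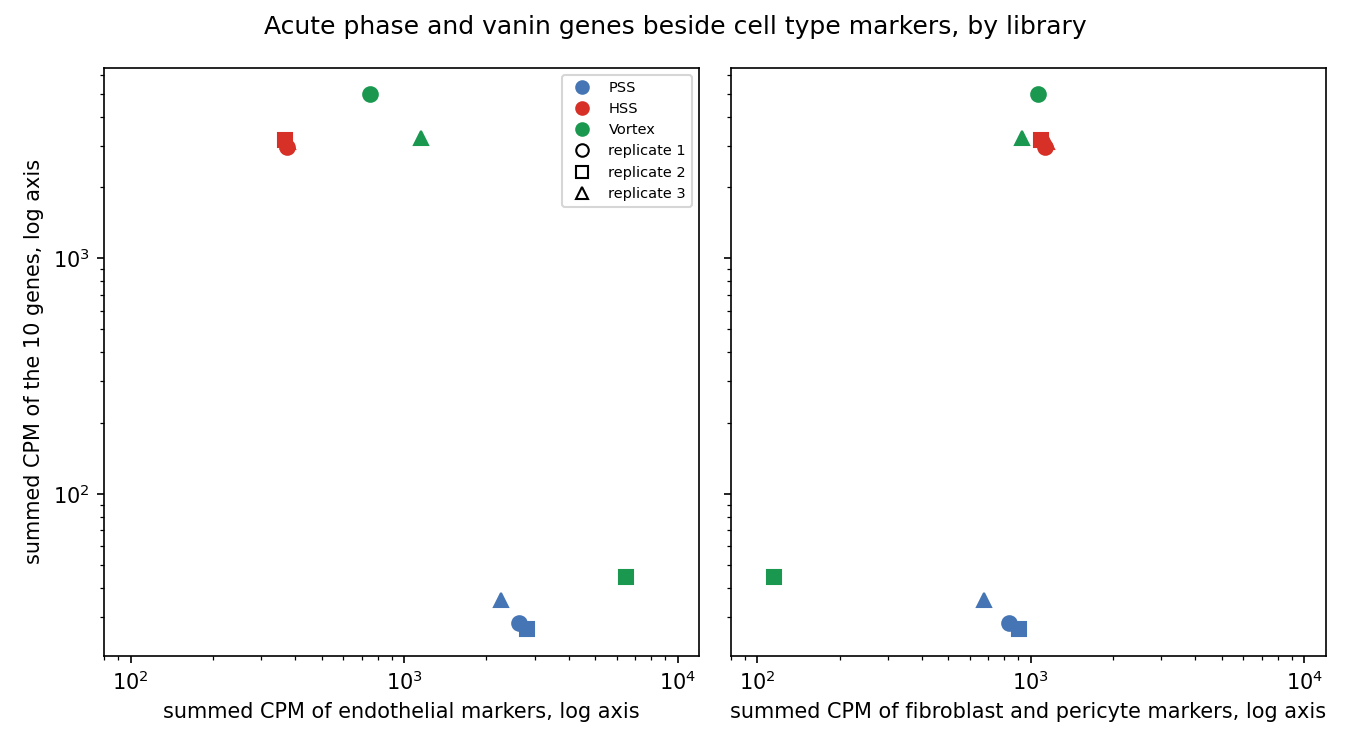
Summed CPM of the 10 genes against the summed CPM of endothelial and of fibroblast and pericyte markers, 1 point per library on log axes. Vortex replicate 2 has 44.2 CPM of the 10 genes at the highest endothelial sum, 6493 CPM, and the lowest fibroblast and pericyte sum, 115 CPM.

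The gene list that follows and those in the next paragraphs were also chosen with earlier results of these data known. Their counts and p-values are therefore descriptions and no independent support. Of 40 other acute phase genes, 21 were tested, and 4 were called higher and 0 lower in HSS than in PSS (4.18% and 3.70% of all tested genes). The median log2 fold change of the 21 was 1.89, against 0.00 over all tested genes. Steap4, a ferric and cupric reductase, rose by 6.54 (SE 1.10, adjusted p = 0.00968), Serpina3f by 3.60 (adjusted p = 0.0154) and Serpina3i by 2.60 (adjusted p = 0.0208), and the other was Lbp, which binds bacterial lipopolysaccharide. Serpina3f and Serpina3i held 6.29% and 6.84% of the 50-base windows of the member Serpina3g, so reads may have been exchanged with it. C3, the central complement protein, had a log2 fold change of 4.04 that did not pass (SE 1.10, adjusted p = 0.0578, or 0.0492 and 1.29e-07 without Vortex replicates 1 and 2), and Orm1, an acute phase glycoprotein, one of 3.03 (adjusted p = 0.0764, or 3.25e-06 without Vortex replicate 2). Without Vortex replicate 2 the counts were 15 and 0 (15.4% and 13.7% of all tested genes), and the first was 8 without Vortex replicate 1, 0 without any 1 PSS library and 1 without any 1 HSS library. In Vortex against PSS, 5 were called higher and 0 lower (8.33% and 5.03% of all tested genes), or 17 and 0 without replicate 2 (19.7% and 16.6%), and 1, 3 and 2 were called without PSS replicates 1, 2 and 3. Serpina3f rose by 4.57 there (adjusted p = 0.00527), and the call held without each library in turn. However, Serpina3f had 3, 1 and 2 counts in PSS and passed the filter on low counts through the other groups alone. C3 had 3.66 (adjusted p = 0.0545) and Orm1 2.40 (adjusted p = 0.105), and both passed without Vortex replicate 2 alone. Slc39a14, a zinc and iron importer, rose by 1.43 (adjusted p = 0.00987, or 0.0521 without PSS replicate 1). Against HSS, Trf, which encodes the iron carrier transferrin, was the only 1 called, at 0.96 (adjusted p = 0.0251), beside 7.04% of all tested genes. The call was lost without PSS replicate 1 or any 1 HSS library. Leaving out Vortex replicate 2 gave 6 higher and 2 lower (13.9% and 10.0%). Leaving out Vortex replicate 1 gave 2 calls, and 2440 genes in all. Crp, Apcs, Saa4, Hamp and Lrg1 had too few counts to be tested.

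The list of inducing cytokines, receptors and transcription factors had 34 tested of 38. Of these, 10 were called higher and 0 lower in HSS than in PSS, beside 4.18% and 3.70% of all tested genes, with a median of 1.11, or 26 and 0 without Vortex replicate 2, beside 15.4% and 13.7%. The count was 4 without PSS replicate 1 or any 1 HSS library. Cebpd, a C/EBP factor of the acute phase response, rose by 3.58 (SE 0.29, adjusted p = 0.00122), Bcl3, a partner of NF-kappaB, by 1.66 (adjusted p = 0.00404), and Il6st, the signalling receptor of the IL-6 family, by 1.33 (adjusted p = 0.00475). These 3 calls held without each of the 9 libraries in turn. Nfkbiz, which controls Lcn2 in other cells, rose by 1.08 (adjusted p = 0.0159, or 0.0809 at most without 1 library) and Tlr2 by 2.23 (adjusted p = 0.0193, or 0.0987 at most). The STAT3 inhibitor Socs3 had a log2 fold change of 1.92 that did not pass (adjusted p = 0.0508, or 0.0108 and 0.000244 without Vortex replicates 1 and 2). Il6 had 1.24 (adjusted p = 0.303), Osmr, the oncostatin M receptor, 2.23 (adjusted p = 0.131), Stat3 0.58 (adjusted p = 0.109) and Cebpb 1.20 (adjusted p = 0.141), and these 4 passed without Vortex replicate 2 alone. Il1b had too few counts to be tested.

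In Vortex against PSS, 12 of the 34 were called higher and 1 lower, beside 8.33% and 5.03% of all tested genes, or 26 and 1 without replicate 2, beside 19.7% and 16.6%. The count in both directions was 3 without PSS replicate 1 and 8 without PSS replicate 3. Il1a, an alarmin cytokine, rose by 5.67 (SE 0.79, adjusted p = 0.00467), Cebpd by 3.82 (adjusted p = 0.0014) and Bcl3 by 1.94 (adjusted p = 0.00283), and these calls held without each library. However, Il1a had 1, 3 and 2 counts in PSS and passed the filter on low counts through the other groups alone. Il6 rose by 2.48 (adjusted p = 0.0428), a call that held only without Vortex replicate 2 and was lost without any 1 of the other 8 libraries, up to an adjusted p of 0.147. Socs3 rose by 2.30 (adjusted p = 0.0203, or up to 0.0903 without 1 PSS library) and Nfkbiz by 0.93 (adjusted p = 0.0202, or 0.0716 without PSS replicate 1). Osmr at 1.98 (adjusted p = 0.135), Stat3 at 0.52 (adjusted p = 0.107), Cebpb at 1.24 (adjusted p = 0.0985) and Tlr2 at 0.83 (adjusted p = 0.237) passed without Vortex replicate 2 alone. Against HSS, 1 was called higher, Il1a at 3.15 (adjusted p = 0.0272), and 1 lower, the RNA sensor Tlr3 at -2.01 (adjusted p = 0.00825; 4.37% and 2.67% of all tested genes). Both calls were lost without any 1 HSS library, with adjusted p-values up to 0.141 for Il1a and 0.071 for Tlr3, and that of Il1a also without PSS replicate 1 or Vortex replicate 3. Without Vortex replicate 2, 7 were called higher and 4 lower, beside 13.9% and 10.0% of all tested genes, among them Il6 at 1.75 (adjusted p = 0.00116) and Tlr2 at -0.99 (adjusted p = 0.0022).

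Receptors, binding partners and protease targets of these proteins had 22 tested of 34. In HSS against PSS, 2 were called higher and 1 lower, beside 4.18% and 3.70% of all tested genes, with a median of -0.07. The counts were 7 and 3 without Vortex replicate 2, beside 15.4% and 13.7%, 5 in all without Vortex replicate 1, and 1 in all without any 1 library of PSS or HSS. Slc40a1, the iron exporter ferroportin, fell by 1.81 (SE 0.22, adjusted p = 0.00247), and this call held without each library. Mmp9, the gelatinase that lipocalin 2 binds, rose by 3.38 (adjusted p = 0.0406) and the urokinase receptor Plaur by 1.07 (adjusted p = 0.0332), and both calls were lost without any 1 PSS or HSS library, up to an adjusted p of 0.161, that of Mmp9 also without Vortex replicate 3. In Vortex against PSS, 6 were called higher and 3 lower, beside 8.33% and 5.03% of all tested genes, or 8 and 5 without replicate 2, beside 19.7% and 16.6%, and 4 to 6 in all without any 1 PSS or HSS library. Scarb1, a lipoprotein receptor that binds serum amyloid A, rose by 1.46 (adjusted p = 0.00319) and P-selectin, Selp, which pentraxin 3 binds, by 3.01 (adjusted p = 0.0034). Both calls held without each library. However, Selp had 7, 8 and 6 counts in PSS and 6, 7 and 5 in HSS, and passed the filter on low counts through Vortex alone. Tnfaip6, a partner of pentraxin 3 in the hyaluronan matrix, fell by 2.04 (adjusted p = 0.0429), a call lost without Vortex replicate 1 or any 1 PSS or HSS library, while its log2 fold change between HSS and PSS was -0.18 (adjusted p = 0.889). Mmp9 rose by 3.05 (adjusted p = 0.0408), a call that held without Vortex replicate 2 alone. Against HSS, 2 were called higher and 1 lower, beside 4.37% and 2.67% of all tested genes, namely Selp at 3.14 (adjusted p = 0.0073), Scarb1 at 1.02 (adjusted p = 0.0157) and the transferrin receptor Tfrc at -1.23 (adjusted p = 0.0191). All 3 were lost without any 1 HSS library, and Tfrc also without PSS replicate 1; without Vortex replicate 2 there were 7 higher and 3 lower, beside 13.9% and 10.0%.

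Genes of coenzyme A and cysteamine metabolism handle the products of vanins. Of 30, 27 were tested, and 1 was called higher and 0 lower in HSS than in PSS, beside 4.18% and 3.70% of all tested genes, with a median of 0.13, or 5 and 1 without Vortex replicate 2 (15.4% and 13.7% of all) and 3 in all without Vortex replicate 1. It was Slc7a11, the cystine importer, at 2.93 (SE 0.51, adjusted p = 0.0114, but 0.0573 and 0.0523 without PSS replicate 1 or 3). In Vortex against PSS, 4 were called higher and 0 lower (8.33% and 5.03% of all), or 6 and 3 without replicate 2 (19.7% and 16.6%), and 0 to 2 when 1 library of PSS or HSS, or Vortex replicate 3, was left out. Slc7a11 rose by 2.73 there (adjusted p = 0.0108, or 0.0539 without PSS replicate 1). Gclm, a subunit of the first enzyme of glutathione synthesis, rose by 1.03 (adjusted p = 0.0218), and the call was lost without PSS replicate 1, PSS replicate 3 or HSS replicate 3. Pank1, a pantothenate kinase, did not pass, at -0.42 (adjusted p = 0.491) in HSS and -0.45 (adjusted p = 0.383) in Vortex. Against HSS, edgeR's test called 0, beside 7.04% of all tested genes, with 2 at an unadjusted p under 0.05. The DESeq2 Wald test called 1, and 2700 genes in all. Without Vortex replicate 2 edgeR called 2 higher and 2 lower, beside 13.9% and 10.0% of all tested genes. Without Vortex replicate 1 it called 1, and 2440 genes in all.

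Of all tested genes outside the set, the 8 whose profile over the 9 libraries lay nearest to the mean profile of the tested members were Abhd5, Slpi, Itga7, Sdc4, H2-T10, Igfbp6, Sod2 and Lbp. Likeness was the root mean square distance of standardized log2 CPM, from 0.08 for Abhd5 to 0.13 for Lbp. Slpi, a secreted inhibitor of leukocyte proteases, stood at 2.09 to 2.94 CPM in PSS, 106 to 108 CPM in HSS and 151, 2.86 and 88.4 CPM in Vortex. Sod2, the mitochondrial superoxide dismutase, stood at 81 to 86.7 CPM in PSS, 376 to 390 CPM in HSS and 458, 81.7 and 355 CPM in Vortex. Likeness was taken over all 9 libraries, so the low Vortex replicate 2 of both genes follows from how they were picked. The members' own distances were 0.15 for Saa3, 0.16 for Vnn3, 0.17 for Lcn2 and Hp, and 0.22 to 0.30 for Serpina3n, Saa1 and Saa2, against 0.43 for Ptx3 and 0.97 for Serpina3g.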

How the data were processed

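Polyadenylated RNA of 9 libraries was sequenced. TRIzol extraction and a NEBNext Ultra kit were used, per the labels' protocols. HISAT2, HTSeq 0.13.5 and the build GRCm39 are named in the submitters' processing notes, and no source used here states the strand setting. In 1 table the authors deposited whole-number counts per gene, not normalized, and FPKM values; count, FPKM and column total gave 1 gene length in 100% of genes (relative tolerance 1e-06).

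The analysis of counts used edgeR 4.0.16 under R 4.3.3 (TMM scaling, filterByExpr, robust quasi-likelihood fit of all 9 libraries with 1 mean per group), which left 15774 of 31232 genes. The threshold for a call was 0.05 after Benjamini-Hochberg adjustment. The biological coefficient of variation was 0.350. CPM uses TMM-scaled totals. Standard errors are the log2 fold change over the square root of F. Alternatives were DESeq2 1.42.0 size factors, the DESeq2 Wald test, no filter beyond 1 count, a replicate block, only the 6 compared libraries, and each library left out. The procedure was also run on simulated data that had the same spread in every group. The real groups differed in spread, so that run does not vouch for the calls given here.

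The members and lists were chosen with earlier results of these data known. All members are described. Of each pathway list, genes are named from the 3 smallest p-values per comparison and from 16 genes fixed for all comparisons (14 tested, with adjusted p-values of 0.075 to 0.971 in Vortex against HSS, where few are named); the text gives part of these. Lbp is named by likeness and to complete a count. Likeness used log2(CPM + 1) of genes averaging 1 CPM or more, and a floor of 3 counts was used where a group or library had 0. Shared sequence came from GENCODE M21 transcripts and promoters from RefSeq on GRCm38.p6, another build than the authors'.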

Additional observations from a re-analysis of the deposited data

How the results depend on the processing

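Counts of calls moved widely with the processing; the cause was not tested. With DESeq2 size factors no count moved by over 1.5 times. For HSS against PSS, 1242 genes were called; the DESeq2 Wald test called 2456 genes, 10 other acute phase genes, 17 inducers, 5 receptors and partners and 3 coenzyme A genes, and the fit of the 6 compared libraries 6233, 16, 28, 12 and 9. Without the filter 3 members and 2 coenzyme A genes were called. For Vortex against PSS, 2107 genes were called; the DESeq2 Wald test called 3489 and 12 other acute phase genes, and the 6 libraries 74, with 0 members, 0 other acute phase genes, 2 inducers, 1 receptor or partner and 0 coenzyme A genes. Without the filter 2 members were called. For Vortex against HSS, 1111 genes were called, 713 without the filter (0 other acute phase genes, 3 inducers), 2700 by the DESeq2 Wald test (2 other acute phase genes, 4 inducers, 1 coenzyme A gene) and 66 with 6 libraries (0 other acute phase genes, 1 inducer, 1 receptor or partner).

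Replicate numbers did not pair the samples: same-numbered deviations correlated at -0.12 to 0.12. With the replicate block, HSS against PSS gave 772 genes, 2 members and 2 receptors or partners, Vortex against PSS 1258 genes, 2 members and 2 coenzyme A genes, and Vortex against HSS 357 genes, 0 other acute phase genes and 1 inducer.

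Leaving out 1 library gave these ranges. HSS against PSS had 285 to 4730 genes, 0 to 9 members, 0 to 15 other acute phase genes, 4 to 26 inducers, 1 to 10 receptors and partners and 0 to 6 coenzyme A genes. Vortex against PSS had 519 to 5888, 0 to 9, 1 to 17, 3 to 27, 4 to 13 and 0 to 9, and Vortex against HSS 25 to 3887, 0 to 2, 0 to 8, 0 to 11, 0 to 10 and 0 to 4, in the same order.

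The log2 fold change between Vortex and HSS changed sign in 4 members. Lcn2 went from 0.02 to -0.03 without the filter and -0.46 with the replicate block. With 1 library left out it ranged from -0.60 to 0.60, and it was -0.01 without HSS replicate 1 and -0.22 without Vortex replicate 3, with the low end without Vortex replicate 1. The same range was -1.41 to 0.16 for Saa3 and -0.95 to 0.47 for Hp, above 0 only without Vortex replicate 2. For Serpina3n it was -1.84 to 0.56, with 0.56, 0.28 and 0.03 without Vortex replicate 2, Vortex replicate 3 and HSS replicate 2. Saa1, Saa2, Serpina3n, Vnn3 and Ptx3 had few or no counts in PSS, and depth limits their ratios there.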

Other observations

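Ceruloplasmin (Cp), a copper-carrying ferroxidase of the acute phase response chosen here after its values were seen, stood at 32.6 CPM ± 7.76 in PSS and 358 ± 4.28 in HSS (SD, n = 3 each). In Vortex replicates 1, 2 and 3 it stood at 452, 1.43 and 172 CPM, so that Vortex replicate 2 was far below PSS. Steap4 stood at 41.1, 2.53 and 97.8 CPM in the same 3 libraries, without the high replicate 1 of most members.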
